A study of Mus musculus with 2 samples.

Results

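The nuclear genes of the mitochondrial respiratory chain and ATP synthase were compared between colon adenoma and normal colon of mice. They were the rows of type mRNA whose symbol began with Nduf and a further letter, with Cox and a digit from 4 to 8, with Atp5 or with Uqcr, together with Sdha, Sdhb, Sdhc, Sdhd and Cyc1. This gave 91 genes of the 22388 mRNA rows, in a table of 35529 rows. Of the 91, 87 reached 1 RPKM (reads scaled to transcript length and library size) in at least 1 library. The other 4 were the tissue isoforms Cox6a2, Cox7b2, Cox8b and Cox8c. By known function the 91 comprised 36 subunits of complex I, 4 of complex II, 9 of complex III, 18 of complex IV and 15 of ATP synthase. A further 9 genes taken in by their symbols are not subunits. Ndufa4, first described as a complex I protein, was placed with complex IV, where it is now assigned.

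RNA was sequenced in 2 libraries. The adenoma library came from colon adenomas of C57BL/6 wild-type mice given AOM (azoxymethane, a colon carcinogen) and DSS (dextran sodium sulfate, which injures the colonic mucosa). The control library came from normal colon of C57BL/6 wild-type mice that received neither agent. Each library was 1 pool of RNA from 6 individuals, so that differences between animals cannot be seen, and no transgene or deletion was named for either group. The labels gave no age, sex or dose. Because each group had 1 library, no difference has a replicate check or a p-value, and the 95% intervals (exact, Clopper-Pearson) beside ratios cover counting error only.

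Complexes I to IV pass electrons from NADH and succinate to oxygen in the inner mitochondrial membrane, and complexes I, III and IV pump protons as they do so. ATP synthase, also called complex V, lets the protons return through its Fo part and makes ATP in its F1 head. Each complex except complex II joins nuclear subunits with a few encoded by mitochondrial DNA, which were not analysed here. In the colon, absorptive surface cells have a high oxidative capacity and use butyrate made by bacteria as fuel.

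The recovered totals were 33174626 reads in the adenoma library and 29548883 in the control library, with 24984 rows above 0 in adenoma and 24718 in control. Epithelial keratin and adhesion genes were abundant in both libraries, with the 6 epithelial markers summing to 5737 RPKM in adenoma and 8912 RPKM in control. All 7 markers of absorptive colonocytes were at least 2-fold lower in adenoma, where 13.2% of other mRNA genes past the filter were. The sum of the 7 was 322 RPKM in adenoma against 1675 RPKM in control. The 8 smooth muscle markers summed to 1790 RPKM in adenoma and 2178 RPKM in control. The 7 leucocyte markers summed to 649 RPKM in adenoma and 371 RPKM in control, mostly Lyz2, and the 5 fibroblast markers to 407 RPKM in adenoma and 342 RPKM in control, where Dcn alone was higher in adenoma and the other 4 were lower (list median log2 difference -0.28). The 6 striated muscle markers summed to 16.7 RPKM in adenoma and 14.5 RPKM in control. The 5 fat markers summed to 58.9 RPKM in adenoma and 36.2 RPKM in control, nearly all of it Fabp4, with 58.1 RPKM in adenoma and 33.9 RPKM in control. Ucp1, the defining gene of brown fat, was listed at 0 in both libraries, and Plin1 was at 0 in adenoma. In such bulk samples, fewer cells of a type and less RNA per cell cannot be told apart, and the part of cell composition in the results below was not tested.

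Respiratory chain mRNAs were abundant in both libraries and mostly somewhat higher in adenoma. The median over the 87 genes was 219 RPKM in adenoma and 150 RPKM in control, against 6.62 RPKM in adenoma and 7.97 RPKM in control over the other mRNA genes past the filter. Among the 500 most abundant mRNA rows, 53 in adenoma and 51 in control belonged to the set. The 91 genes held 3.23% of all RPKM in adenoma and 2.90% in control. Their order of abundance was much alike in the libraries (Spearman's rho 0.92 across 87 genes, a description, since genes are not replicates). Cox4i1 stood highest in adenoma at 1482 RPKM, and in control, where it had 1022 RPKM, Atp5b at 1128 RPKM stood highest.

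The log2 difference, adenoma over control after adding 1 RPKM to each value, had a median of 0.52 over the 87 genes and ran between -0.91 for Sdha and 2.0 for Ndufa4. It was above 0 in 73 genes and below 0 in 14. On this scale 19 of the 87 (21.8%) were 2-fold or more above control in adenoma, and 0 were as far below it. Among all genes past the filter these thresholds were met by 14.0% in the higher and 11.0% in the lower direction, and among the other mRNA genes by 10.3% and 13.2%. The gene just inside the threshold was Ndufv2, at 1.0, and the gene just outside it was Ndufs4, at 0.98. Scaling decided part of this. The median of all mRNA genes lay at -0.17 as deposited, and scaling the libraries to equal sums moved it by -0.31, while scaling by the median ratio or a trimmed mean moved it by 0.17. At equal sums 54 of the 87 genes were still above 0 and 19 had gone below it; 2 stood 2-fold or more above control (Ndufa4 and Ndufc2) and 2 as far below it (Sdha and Ndufs1). Of the 14 genes below 0 as deposited, 7 turned above 0 under the median ratio and the trimmed mean. Relative to the median of all mRNA genes, the median of the 87 stood 0.69 higher as deposited, 0.60 higher at equal sums and 0.73 higher under both other scalings.

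**Figure D1:**
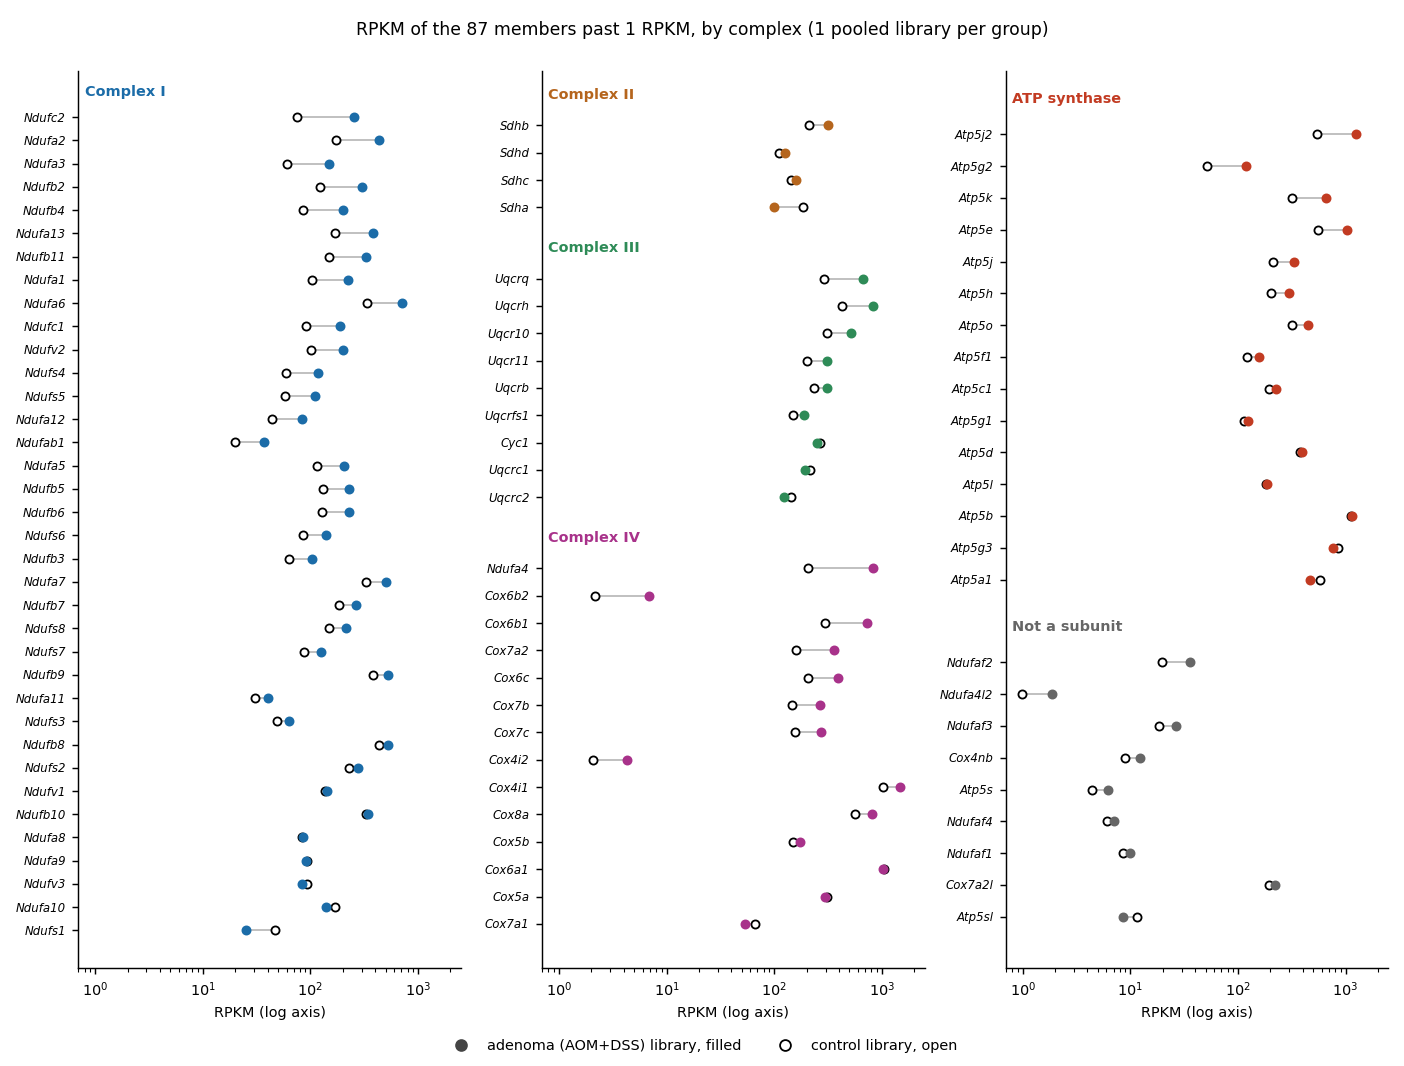
RPKM on a log axis for the 87 genes past 1 RPKM, grouped by complex and sorted by log2 difference. Filled points are the adenoma library, open points the control library and grey lines join them. In complex I most filled points lie to the right, with Ndufc2 at 253 RPKM in adenoma and 75.2 RPKM in control, whereas Sdha, Ndufs1 and Atp5a1 lie to the left.

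Transcript length went with the difference between the libraries across all mRNA genes, and respiratory chain mRNAs are short. Their median RefSeq-matched length was 865 bases, against 2913 bases for the other mRNA genes with such a length. Other mRNA genes of at most 600 bases had a median log2 difference of 1.29 (204 genes), those between 600 and 1000 bases 0.84 (606 genes), those between 1000 and 2000 bases 0.31 (2680 genes), those between 2000 and 4000 bases -0.21 (4958 genes) and longer ones -0.65 (3701 genes). The members in these same classes had medians of 0.89 (23 genes), 0.61 (28 genes), 0.32 (25 genes), -0.27 (9 genes) and 0.27 (2 genes). The short members were thus a little below other short mRNAs, and those between 1000 and 4000 bases lay close to genes of their own length. Spearman's rho between length and log2 difference was -0.47 over the 87 members and -0.54 over 12149 other mRNA genes, given as a description across genes of the same 2 libraries. What made length go with the difference was not tested.

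**Figure D2:**
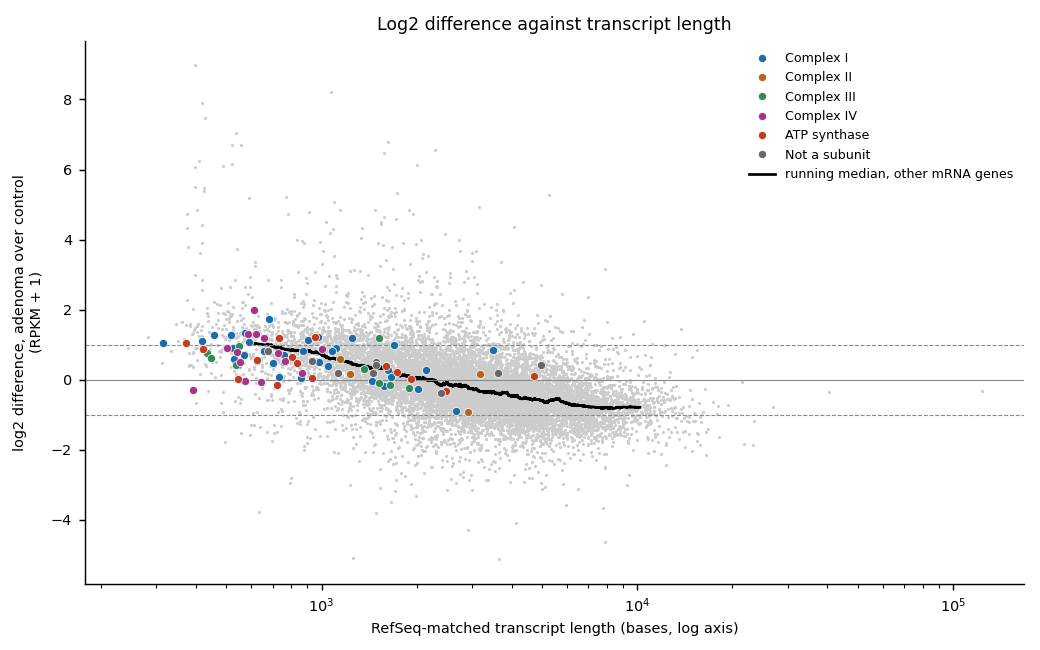
Log2 difference of adenoma over control (RPKM + 1) against RefSeq-matched transcript length on a log axis. Grey points are other mRNA genes, the black line is their running median and coloured points are the members by complex, which follow the line down, with rho -0.47 over the members.

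Each member was therefore set beside the 400 other mRNA genes nearest to it in length. Of these neighbours 27.7% passed 2-fold upward in adenoma and 6.49% downward, and with RefSeq-matched lengths the shares were 33.1% and 4.98%. The 21.8% of members at least 2-fold higher was thus above the 10.3% of all other mRNA genes and below the share of genes of like length. The difference of a member from the median of its neighbours had a median of -0.08 with the longest annotated transcript (42 genes above 0, 45 below) and -0.14 with RefSeq-matched lengths (34 above, 53 below). It turned positive, 0.38, with the median transcript length. Of the length choices, that one gave the fewest low mRNA values near a whole read (13.7% in adenoma, 14.1% in control). With the longest transcript the mean over members was 0.06. With the longest transcript, 5 members lay at least 1 log2 unit above their neighbours and 2 at least 1 below, where 8.42% and 7.16% of other mRNA genes did. With RefSeq-matched lengths the counts were 2 above and 5 below, against 7.45% and 6.35%. The 2 above were Ndufab1 (1.21) and Cox4nb (1.03), and the 5 below were Cox7a1 (-1.35), Cox5a (-1.05), Cox6a1 (-1.04), Atp5l (-1.01) and Atp5g3 (-1.01). These counts changed when the neighbours also had a mean RPKM within 4-fold of the member. With RefSeq-matched lengths, 3 members then lay at least 1 above and only 1, Cox7a1 (-1.24), at least 1 below. The median over the 87 was then -0.05. The share of other mRNA genes was not taken for this matching. Ndufa4 lay at 0.99 with RefSeq-matched lengths and at 1.48 with the longest transcript. Between the 2 length choices the sign differed for 8 of the 87, among them Atp5l, at 0.71 with its longest transcript of 6310 bases and at -1.01 with the RefSeq-matched length of 544 bases.

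**Figure D3:**
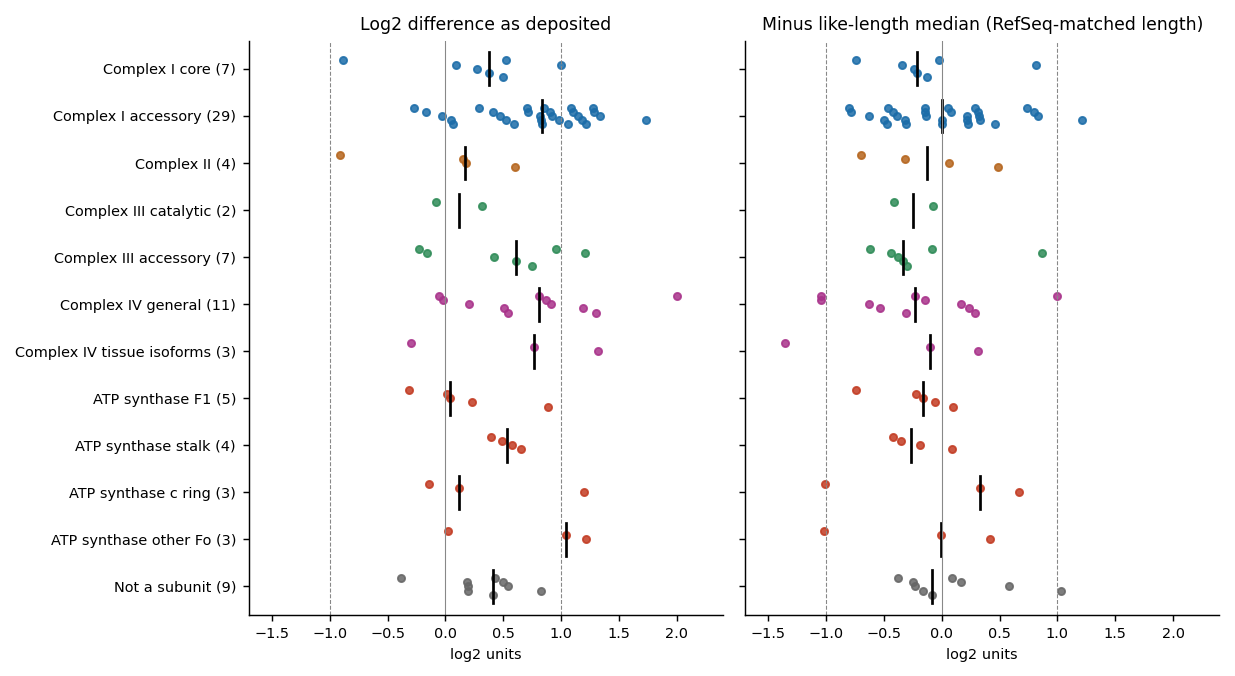
Log2 differences of the 87 members by complex and role, as deposited (left) and after taking away the median of the 400 mRNA genes nearest in RefSeq-matched length (right). Each point is 1 gene, black bars are medians, dashed lines mark 1 log2 unit and the number of genes is in parentheses; the complex I accessory median is 0.83 on the left and 0.00 on the right.

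Complex I takes electrons from NADH. Over its 36 subunits the median was 202 RPKM in adenoma and 102 RPKM in control, their sum was 1.62 times as high in adenoma, 32 were above 0 on the log2 scale and 11 were at least 2-fold higher. These 11 were 30.6% of the subunits, against 10.3% of other mRNA genes. Of the like-length neighbours of all members, 27.7% passed 2-fold upward, and 33.1% with RefSeq-matched lengths. Against genes of like length the 36 subunits had a median of 0.06 with the longest transcript and -0.07 with RefSeq-matched lengths. The 7 core subunits, which carry the flavin and the iron-sulfur clusters or surround the quinone site, had a median log2 difference of 0.38, and the 29 accessory subunits, which surround the core, had 0.83. Against genes of like length the medians were -0.22 for core and 0.00 for accessory subunits with RefSeq-matched lengths, and -0.23 and 0.31 with the longest transcript. How far the accessory subunits stood above the core ones thus depended on whether length was taken into account and on the length chosen.

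Among the core subunits Ndufv2, an iron-sulfur protein next to the flavin site, was at 202 RPKM in adenoma and 101 RPKM in control, a ratio of 2.01 (95% counting interval 1.94 to 2.08). Ndufs8 and Ndufs7, both iron-sulfur subunits, were at 216 and 125 RPKM in adenoma and at 150 and 88.0 RPKM in control. Ndufs1, the largest core subunit, had 25.0 RPKM in adenoma against 47.0 RPKM in control, a ratio of 0.53 (0.50 to 0.56). Core subunits of the same enzyme thus lay on both sides. Ndufv1, which binds NADH and the flavin, was nearly level, with 144 RPKM in adenoma and 135 RPKM in control, a ratio of 1.06 (1.03 to 1.10). Ndufs1 has exons that overlap genes on the opposite strand, and no source states whether the authors' counting used strand.

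The accessory subunits held the largest differences of the complex. Ndufc2, a membrane arm subunit, was at 253 RPKM in adenoma and 75.2 RPKM in control, a ratio of 3.36 (3.17 to 3.56). Ndufa2, a subunit with a thioredoxin-like fold, was at 434 RPKM in adenoma and 171 RPKM in control, 2.53 times as high (2.43 to 2.64). Ndufa3 had 148 RPKM in adenoma and 60.2 RPKM in control, a ratio of 2.46 (2.28 to 2.65). These 3 were the furthest apart of the complex. Ndufa6, of the LYR motif family, was the most abundant subunit in adenoma, with 712 RPKM in adenoma and 335 RPKM in control, 2.13 times as high (2.06 to 2.19). The most abundant in control was Ndufb8, with 527 RPKM in adenoma and 430 RPKM in control (1.22, 1.21 to 1.24). Ndufa13, also known as GRIM-19, had 384 RPKM in adenoma and 169 RPKM in control (ratio 2.28, 2.21 to 2.34).

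Of the membrane arm subunits, Ndufb2 was at 300 RPKM in adenoma and 123 RPKM in control, 2.44 times as high (2.30 to 2.58). Ndufb4 was at 201 RPKM in adenoma and 85.9 RPKM in control (2.34, 2.23 to 2.45), and Ndufb11 at 330 RPKM in adenoma and 148 RPKM in control (2.22, 2.14 to 2.31). Ndufa1 had 222 RPKM in adenoma and 103 RPKM in control (2.16, 2.03 to 2.31), and Ndufc1 had 190 RPKM in adenoma and 90.9 RPKM in control (2.09, 1.93 to 2.27). All 5 were at least 2-fold higher, and only Ndufb4, by 0.46, lay more than 0.4 above genes of its length with RefSeq-matched lengths. With the longest transcript Ndufb2 lay 1.71 above, Ndufc1 0.52, Ndufb4 0.46, Ndufa1 0.36 and Ndufb11 0.33. For Ndufb2 the longest transcript has 4371 bases and the RefSeq-matched one 455. Ndufb4 and Ndufb11 each have 1 near-identical copy elsewhere in the genome, and reads of Ndufa2, Ndufa3, Ndufb2, Ndufa13 and Ndufb11 may be shared with overlapping genes on the opposite strand.

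At the other end, Ndufa10 was at 140 RPKM in adenoma and 169 RPKM in control, a ratio of 0.83 (0.80 to 0.85). Ndufv3, a subunit of the NADH-oxidising module, was at 83.1 RPKM in adenoma and 93.4 RPKM in control (0.89, 0.85 to 0.93), and Ndufa9 at 91.2 RPKM in adenoma and 93.1 RPKM in control (0.98, 0.94 to 1.02). These were the only accessory subunits below 0 as deposited, and of them only Ndufa10 stayed below 0 under the median ratio and the trimmed mean. The other 16 accessory subunits lay between log2 differences of 0.05 for Ndufa8 and 0.98 for Ndufs4. Ndufab1, the mitochondrial acyl carrier protein, was at 36.8 RPKM in adenoma and 19.9 RPKM in control (1.85, 1.75 to 1.95); its transcript of 3479 bases is long for the set, and it has 2 near-identical copies, so its reads are uncertain.

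Complex II, succinate dehydrogenase, also works in the citrate cycle, and none of its 4 subunits passed 2-fold. Sdha, the flavoprotein that oxidises succinate, was at 99.3 RPKM in adenoma and 187 RPKM in control, a ratio of 0.53 (0.52 to 0.54), the lowest of the set together with Ndufs1. Sdhb, its iron-sulfur partner, was at 318 RPKM in adenoma and 209 RPKM in control, a ratio of 1.52 (1.48 to 1.57). The membrane anchors differed less: Sdhc had 161 RPKM in adenoma and 144 RPKM in control (1.11, 1.09 to 1.14), and Sdhd had 127 RPKM in adenoma and 112 RPKM in control (1.13, 1.09 to 1.18). The ratio of Sdhb to Sdha was 3.20 in adenoma and 1.12 in control, and as both are read in the same library this contrast does not depend on the scaling. Sdha lay 0.70 below genes of its own length and Sdhb 0.07 above, with RefSeq-matched lengths, so that the contrast between them was smaller against genes of like length. The summed level of the complex was 704 RPKM in adenoma and 652 RPKM in control, and its median log2 difference of 0.17 became -0.23 at equal sums.

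Complex III, the cytochrome bc1 complex, passes electrons to cytochrome c. Its 9 nuclear subunits summed to 1.52 times as much in adenoma, with a median log2 difference of 0.42. Uqcrq, a small accessory subunit, had 668 RPKM in adenoma and 289 RPKM in control, a ratio of 2.31 (2.26 to 2.36), and was the only subunit past 2-fold. It lay 0.87 above genes of its RefSeq-matched length, while the other 8 subunits lay below theirs. Uqcrh, the hinge protein, was the most abundant, with 821 RPKM in adenoma and 423 RPKM in control (1.94, 1.89 to 2.0), followed in difference by Uqcr10 with 520 RPKM in adenoma and 308 RPKM in control (1.69, 1.62 to 1.75). All 5 small subunits (these and Uqcr11 and Uqcrb) were thus higher in adenoma, also at equal sums, where the lowest of them, Uqcrb, had a log2 difference of 0.026. The catalytic cytochrome c1, Cyc1, was at 252 RPKM in adenoma and 267 RPKM in control (0.94, 0.92 to 0.97). The 2 core proteins were also lower, Uqcrc1 with 191 RPKM in adenoma and 213 RPKM in control (0.90, 0.87 to 0.92) and Uqcrc2 with 122 RPKM in adenoma and 144 RPKM in control (0.85, 0.82 to 0.88). Under the median ratio and the trimmed mean Cyc1 and Uqcrc1 turned above 0 on the log2 scale, and Uqcrc2 stayed below it. The Rieske iron-sulfur protein gene Uqcrfs1 was at 187 RPKM in adenoma and 150 RPKM in control, a log2 difference of 0.32.

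Complex IV, cytochrome c oxidase, reduces oxygen. Over the 14 subunits past the filter the median was 330 RPKM in adenoma and 183 RPKM in control, and 4 were at least 2-fold higher. These 4 were 28.6% of the subunits, against 10.3% of other mRNA genes. Of the like-length neighbours of all members, 27.7% passed 2-fold upward, and 33.1% with RefSeq-matched lengths. Complex IV transcripts are shorter than most of the set, with a median RefSeq-matched length of 614 bases. The median log2 difference of their own neighbours was typically 0.90 with the longest transcript and 1.0 with RefSeq-matched lengths. Against these the 14 subunits had medians of -0.11 and -0.19. The share past 2-fold was not taken for these neighbours alone. Ndufa4 was the furthest apart of all 87 genes, with 831 RPKM in adenoma and 207 RPKM in control, a ratio of 4.01 (3.87 to 4.16). Without it the complex had a median log2 difference of 0.77, in place of 0.79, so the median did not rest on where Ndufa4 is placed. Cox6b1, which faces the intermembrane space, had 726 RPKM in adenoma and 294 RPKM in control (2.47, 2.39 to 2.55). Cox7a2, a small membrane subunit, had 363 RPKM in adenoma and 159 RPKM in control (2.28, 2.19 to 2.38).

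Several abundant subunits were nearer to level. Cox4i1, the general isoform of the regulatory subunit 4, was the most abundant in adenoma, with 1482 RPKM in adenoma and 1022 RPKM in control (1.45, 1.43 to 1.48). Cox6a1, the most abundant in control, was at 1032 RPKM in adenoma and 1051 RPKM in control (0.98, 0.96 to 1.0), and Cox5a at 297 RPKM in adenoma and 308 RPKM in control (0.96, 0.93 to 1.0). With RefSeq-matched lengths both were short transcripts that stood level where most genes of their length were higher, and both lay more than 1 log2 unit below the median of these. With the longest transcript Cox6a1 lay at -1.03 and Cox5a at -0.23. When neighbours were matched on RPKM level too, with RefSeq-matched lengths, no general subunit of complex IV lay below -0.90. The other general subunits (Cox5b, Cox6c, Cox7b, Cox7c and Cox8a) had log2 differences between 0.20 and 0.92, and Cox5b, Cox6c, Cox7b and Cox7c have near-identical copies.

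Several subunits of complex IV have a second gene used in particular tissues. Cox7a1, the heart and skeletal muscle form of subunit 7a, was the only abundant one, with 53.9 RPKM in adenoma and 66.4 RPKM in control (0.81, 0.73 to 0.90). Its share of Cox7a1 and Cox7a2 together was 12.9% in adenoma and 29.4% in control. Cox7a1 was 1.35 below genes of its RefSeq-matched length and 1.29 below with the longest transcript, the lowest of the set under both. Of the 8 smooth muscle markers, 7 were below 0 on the log2 scale and 3 were past 2-fold downward, where 13.2% of other mRNA genes were. Myh11 had 61.0 RPKM in adenoma and 178 RPKM in control, and Tagln, the most abundant, had 597 RPKM in adenoma and 558 RPKM in control. Against genes of like length the median of the 8 was -0.64 with the longest transcript and -0.61 with RefSeq-matched lengths. Their part in the level of Cox7a1 was not tested. Of the 6 striated muscle markers, Ckm had 7.47 RPKM in adenoma and 8.33 RPKM in control, Acta1 had 3.23 RPKM in adenoma and 4.89 RPKM in control, and Mylpf had 5.19 RPKM in adenoma and 0.986 RPKM in control, while Myh2, Myh4 and Tnnt3 were under 1 RPKM in both libraries. The part of striated muscle was not tested either.

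The remaining isoforms were scarce. Cox6b2, the testis form, was at 6.84 RPKM in adenoma and 2.15 RPKM in control (3.18, 2.21 to 4.74), which was 0.933% of Cox6b1 and Cox6b2 together in adenoma and 0.725% in control. Cox4i2, known from lung, was at 4.27 RPKM in adenoma and 2.10 RPKM in control (2.04, 1.42 to 2.96), a log2 difference of 0.77 after adding 1 RPKM. Below the filter, Cox8b had 0.830 RPKM in adenoma and 0.0932 RPKM in control, about 10 reads against 1, with a ratio of 8.91 whose interval ran from 1.27 to 387. Cox6a2 had 0.229 RPKM in adenoma and 0.257 RPKM in control, about 5 reads in each. Cox7b2 and Cox8c were listed at 0 in both libraries, where 3 reads would have been 0.167 and 0.197 RPKM in adenoma and 0.187 and 0.222 RPKM in control.

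ATP synthase was summarised over 15 subunits, with a median of 393 RPKM in adenoma and 321 RPKM in control. Its F1 head with the central stalk was close to level, with a median log2 difference of 0.04 over 5 genes, the peripheral stalk had 0.53 over 4, and the membrane subunits outside the c ring 1.05 over 3. Against genes of like length these medians were -0.17, -0.27 and -0.01 with RefSeq-matched lengths. With the longest transcript they were -0.16, -0.21 and 0.71. How far these parts stood from each other thus depended on whether length was taken into account and on the length chosen. The median over all 15 was 0.39 as deposited and -0.0020 at equal sums. Atp5b, the catalytic beta subunit and the most abundant of the enzyme in control, was at 1136 RPKM in adenoma and 1128 RPKM in control, a ratio of 1.01 (1.0 to 1.02). Its partner Atp5a1, the alpha subunit, was at 463 RPKM in adenoma and 576 RPKM in control, a ratio of 0.80 (0.79 to 0.82). The beta subunit was thus level and the alpha subunit somewhat lower, and the ratio of Atp5b to Atp5a1 was 2.45 in adenoma and 1.96 in control. The small epsilon subunit Atp5e had 1025 RPKM in adenoma and 553 RPKM in control, a ratio of 1.85 (1.80 to 1.91), and lay 0.17 below genes of its RefSeq-matched length. With the longest transcript it lay 0.58 above genes of like length, so the sign depended on the length chosen.

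In the membrane part, Atp5j2 (subunit f) was at 1260 RPKM in adenoma and 543 RPKM in control, a ratio of 2.32 (2.28 to 2.36), and was the most abundant subunit of the enzyme in adenoma. Atp5k (subunit e), with 1 near-identical copy, was at 663 RPKM in adenoma and 321 RPKM in control (2.07, 1.99 to 2.15). Atp5l (subunit g) was at 184 RPKM in adenoma and 181 RPKM in control (1.02, 0.97 to 1.07). Of these 3, 2 were past 2-fold and Atp5l was level, but Atp5l has 9 near-identical copies and its reads are uncertain. The pseudogene row Atp5l-ps1, outside the rule since its type is not mRNA, had 40.4 RPKM in adenoma and 106 RPKM in control. The 4 stalk genes Atp5f1, Atp5h, Atp5j and Atp5o lay between 0.39 and 0.65 on the log2 scale.

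The c ring, through which protons pass, is made from 3 genes that encode the same mature protein behind different import signals. Atp5g3, the most abundant, had 769 RPKM in adenoma and 847 RPKM in control (0.91, 0.89 to 0.93). Atp5g1 had 123 RPKM in adenoma and 113 RPKM in control (1.09, 1.06 to 1.11). Atp5g2 had 119 RPKM in adenoma and 51.2 RPKM in control (2.33, 2.17 to 2.50). The sum of the 3 was level as deposited, at 1011 RPKM in both libraries (0.759 times control at equal sums), while the share of Atp5g2 was 11.8% in adenoma and 5.06% in control. Atp5g1 has 1 near-identical copy and Atp5g2 has 2, so how the authors' counting split their reads is uncertain.

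**Figure D4:**
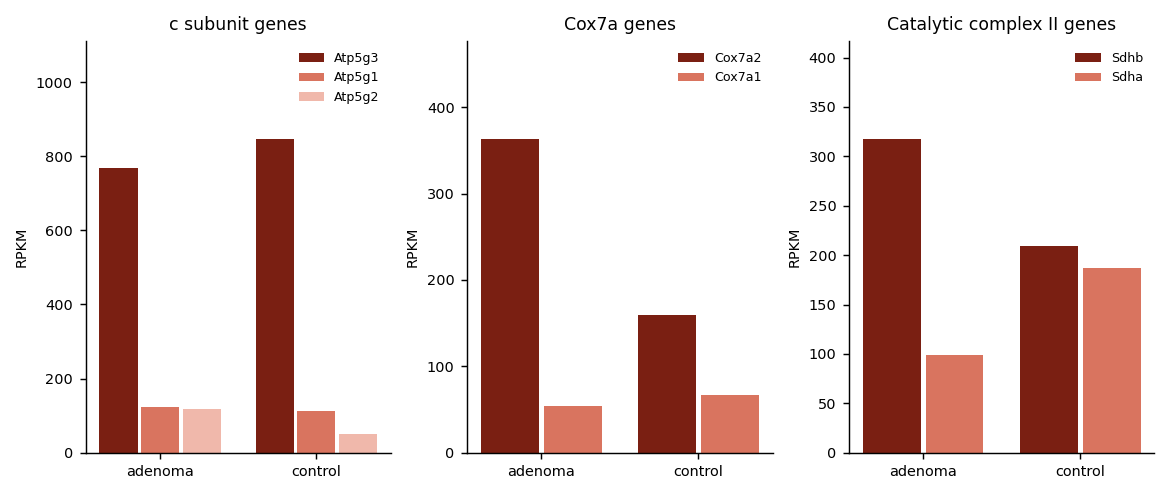
RPKM (bars from 0, linear axes) of the 3 c subunit genes, the 2 Cox7a genes and the catalytic genes of complex II, with adenoma to the left of control in each panel. Atp5g2 is 119 RPKM in adenoma and 51.2 RPKM in control, Cox7a2 is 363 RPKM in adenoma and 159 RPKM in control, and Sdha is 99.3 RPKM in adenoma and 187 RPKM in control.

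The 9 genes taken in by symbol that are not subunits had a median log2 difference of 0.41, with 0 past 2-fold. The complex I assembly factors Ndufaf1, Ndufaf2, Ndufaf3 and Ndufaf4 lay between 0.19 and 0.82, the highest being Ndufaf2 with 35.8 RPKM in adenoma and 19.8 RPKM in control (1.81, 1.60 to 2.05). Cox7a2l, which joins complexes into supercomplexes, was the most abundant, with 219 RPKM in adenoma and 193 RPKM in control (1.14, 1.10 to 1.17). Ndufa4l2, a hypoxia-inducible paralogue of Ndufa4, was scarce, with 1.88 RPKM in adenoma and 0.985 RPKM in control (1.91, 1.19 to 3.14). Atp5sl was at 8.62 RPKM in adenoma and 11.6 RPKM in control (0.74, 0.67 to 0.83), Atp5s had a log2 difference of 0.41 and Cox4nb, now named Emc8 and a subunit of an endoplasmic reticulum complex, 0.42.

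The promoters were read for the letters of the NRF1, ETS and YY1 motifs. Many respiratory chain genes are bound by NRF1 and by ETS factors such as GABP. Of the 91 members, 74 had an entry in the RefSeq promoter table (GRCm38.p6), and the 250 bases before the start were searched on both strands, with a palindromic match counted once. The NRF1 core letters CGCANGCG were found in 18 of the 74 promoters (24.3%), against 1364 of 9812 other mRNA promoters (13.9%). This core was chosen after matches of a longer form had been seen, so the contrast is a description only. The ETS letters CCGGAAG were found in 12 (16.2%), against 13.6% of the others, and the YY1 letters AAGATGGC in 0, against 1.91%. The NRF1 letters were in 3 of the 17 promoters of members past 2-fold in adenoma and in 15 of the 55 promoters of the other members past the filter, so they stood in both groups. The ETS letters were in 1 of the 17 and 11 of the 55. Any of these motifs was in 4 of the 17 (23.5%) and 22 of the 55 (40.0%), against 26.4% of the other mRNA promoters. The promoters of 4 genes, all on the minus strand, are printed here. Ndufb4 (ratio 2.34, chr16:37654369-37654618) and Sdha (0.53, chr13:74350241-74350490) each hold 3 NRF1 matches, though 1 was higher and 1 lower in adenoma. Cox6a1 (0.98, chr5:115348959-115349208), which was near level, holds 2 NRF1 matches and 1 ETS match. Ndufa4 (4.01, chr6:11907451-11907700), the furthest apart of the set, holds none. Capitals mark the matches, which are letters in a window and not known binding sites.
Ndufb4: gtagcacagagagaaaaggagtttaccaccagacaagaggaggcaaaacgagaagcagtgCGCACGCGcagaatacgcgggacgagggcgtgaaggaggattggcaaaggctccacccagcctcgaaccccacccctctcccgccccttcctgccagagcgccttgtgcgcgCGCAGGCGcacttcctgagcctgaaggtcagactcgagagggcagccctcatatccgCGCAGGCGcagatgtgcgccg
Sdha: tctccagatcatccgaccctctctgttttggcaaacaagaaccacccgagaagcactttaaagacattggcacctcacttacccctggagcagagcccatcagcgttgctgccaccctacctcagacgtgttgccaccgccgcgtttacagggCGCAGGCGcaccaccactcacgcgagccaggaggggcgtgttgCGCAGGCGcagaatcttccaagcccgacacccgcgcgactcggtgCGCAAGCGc
Cox6a1: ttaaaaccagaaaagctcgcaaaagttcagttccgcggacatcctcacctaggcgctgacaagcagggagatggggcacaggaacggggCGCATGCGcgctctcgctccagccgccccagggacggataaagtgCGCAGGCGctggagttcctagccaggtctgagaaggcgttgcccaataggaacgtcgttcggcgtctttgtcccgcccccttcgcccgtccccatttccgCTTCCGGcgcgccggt
Ndufa4: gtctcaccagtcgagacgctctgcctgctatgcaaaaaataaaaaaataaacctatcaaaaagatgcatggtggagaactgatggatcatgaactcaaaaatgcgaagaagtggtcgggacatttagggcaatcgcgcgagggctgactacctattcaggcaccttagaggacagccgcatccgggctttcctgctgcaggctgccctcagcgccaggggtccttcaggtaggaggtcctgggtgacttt

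Other genes that serve the same organelle were not uniformly higher in adenoma. Their counts past 2-fold stand beside the 10.3% of other mRNA genes past it upward and the 13.2% past it downward, and in lists this small a share near these is no result about the list. Among 14 citrate cycle enzymes the median log2 difference was -0.17, with 0 past 2-fold upward and 3 past it downward. Cs, which makes citrate, was at 95.6 RPKM in adenoma and 230 RPKM in control (0.42, 0.41 to 0.43). Ogdh, of the oxoglutarate dehydrogenase complex, was at 22.3 RPKM in adenoma and 62.6 RPKM in control (0.36, 0.34 to 0.37), and Suclg2, of succinyl-CoA ligase, the step before succinate dehydrogenase, at 14.9 RPKM in adenoma and 36.8 RPKM in control (0.41, 0.38 to 0.43). These 3 were further below control than Sdha, while Fh1, the step after succinate dehydrogenase, had 94.6 RPKM in adenoma and 90.3 RPKM in control (1.05, 1.01 to 1.08). The other succinyl-CoA ligase genes were nearer to level than Suclg2, and within the adenoma library each had a higher RPKM than Suclg2. Suclg1 had 189 RPKM in adenoma and 206 RPKM in control (0.92, 0.89 to 0.94). Sucla2 had 38.3 RPKM in adenoma and 34.4 RPKM in control (1.11, 1.05 to 1.18). The most abundant of the 14 enzymes in adenoma was Mdh2, with 221 RPKM in adenoma and 207 RPKM in control. The median of the 14 against genes of like length was -0.20 with the longest transcript and -0.36 with RefSeq-matched lengths.

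Among 14 regulators of mitochondrial biogenesis 0 passed 2-fold upward and 2 downward, and 2 of 14 is a share near the 13.2% of other mRNA genes. The coactivator Ppargc1b was at 0.907 RPKM in adenoma and 5.10 RPKM in control (0.18, 0.14 to 0.22), and Ppargc1a at 1.42 RPKM in adenoma and 4.06 RPKM in control (0.35, 0.30 to 0.40). Nrf1, whose motif was searched above, was nearly level, with 6.18 RPKM in adenoma and 6.40 RPKM in control (0.97, 0.87 to 1.07). The most abundant regulator was Esrra, with 31.1 RPKM in adenoma and 43.5 RPKM in control. The list's median was -0.37, and against genes of like length 0.01 with the longest transcript and 0.06 with RefSeq-matched lengths. Of 11 genes of coenzyme Q synthesis, Pdss2 alone passed 2-fold, with 4.15 RPKM in adenoma and 10.9 RPKM in control (0.38, 0.33 to 0.44), and the median was -0.14.

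Assembly factors were mixed. Among 13 for complexes II, III and V the median was 0.44, with 3 past 2-fold upward and 0 downward. Sdhaf1, a complex II factor, had 69.6 RPKM in adenoma and 19.1 RPKM in control (3.64, 3.43 to 3.86), Uqcc2, a complex III factor, 228 RPKM in adenoma and 68.3 RPKM in control (3.34, 3.11 to 3.58), and Sdhaf4 36.7 RPKM in adenoma and 15.8 RPKM in control (2.32, 2.04 to 2.65). Of 21 complex IV factors 13 were above 0 and 8 below, with 3 past 2-fold upward (Cox16, Coa6 and Pet100) and 2 downward (Cox10 and Cox15), shares near those of other mRNA genes. Cox16 was at 18.1 RPKM in adenoma and 5.31 RPKM in control (3.40, 3.0 to 3.86), and Cox15, which makes haem A, at 3.59 RPKM in adenoma and 8.46 RPKM in control (0.42, 0.38 to 0.47). Cox10, the preceding enzyme of haem A synthesis, was also lower, at 6.27 RPKM in adenoma and 13.8 RPKM in control (0.45, 0.41 to 0.50). Of 6 complex I factors outside the symbol rule, 0 passed 2-fold and the median was 0.20.

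The carriers beside the chain also split by gene. Among 10 electron carriers and ATP export genes past the filter the median was 0.05, with 2 past 2-fold upward and 0 downward. The adenine nucleotide carrier Slc25a4 was at 163 RPKM in adenoma and 44.5 RPKM in control (3.67, 3.51 to 3.83), while its paralogue Slc25a5, the more abundant in both, was at 544 RPKM in adenoma and 720 RPKM in control (0.76, 0.74 to 0.77). The 2 carriers with the same task thus lay on opposite sides. Cytochrome c, Cycs, was at 27.8 RPKM in adenoma and 12.2 RPKM in control (2.28, 2.12 to 2.44), and the ATP synthase inhibitor Atpif1 at 597 RPKM in adenoma and 324 RPKM in control (1.84, 1.78 to 1.91). Of 13 outer membrane and import genes only Tomm20, an import receptor, passed 2-fold, with 16.5 RPKM in adenoma and 7.37 RPKM in control (2.24, 2.09 to 2.41), and the median was 0.09.

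**Figure D5:**
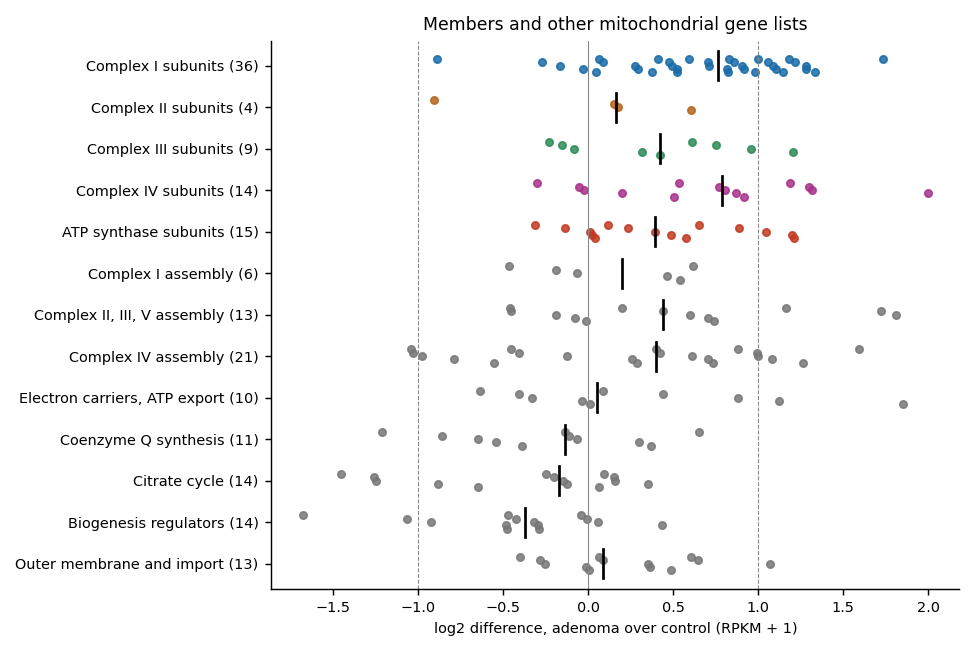
Log2 differences of adenoma over control (RPKM + 1) for the subunits of each complex (coloured) and for 8 other mitochondrial gene lists (grey). Each point is 1 gene, black bars are medians, dashed lines mark 2-fold and numbers of genes are in parentheses; the medians run from -0.37 for the biogenesis regulators to 0.79 for complex IV.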

How the data were processed

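Total RNA of colon was extracted with Trizol and pooled from 6 individuals per group, per the labels. The authors deposited RPKM values, 1 column per library, with a symbol and gene type, per the file headers. The labels name both Proton and Illumina sequencing. The genome build GRCh37, per the submitters' processing notes, is human, though the symbols are mouse. Aligner, counting and strand use are not given in the sources used here.

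Genes with at least 1 RPKM in either library were used. The log2 difference was taken after adding 1 RPKM, and 2-fold was the threshold; ratios are without the added value. With 1 library per group no test was possible. Read totals were recovered from short single-exon genes, for which 144 of 200 values (72.0%) in adenoma and 129 of 182 (70.9%) in control came out within 0.01 of a whole read. Approximate reads for the intervals used RefSeq-matched GENCODE transcript lengths, under which more low mRNA values came out within 0.02 of a whole read (38.7% in adenoma, 40.4% in control) than with the longest transcript (29.5% and 30.4%). With the median transcript length the shares were lowest, 13.7% in adenoma and 14.1% in control. Like-length neighbours were the 400 nearest mRNA genes in longest transcript length; RefSeq-matched length was added after the data were seen. Near-identical copies, found for 22 members, had at least 95% identity over 200 bases (BLAST 2.17.0+), and exons of 33 members overlapped another gene. The NRF1 letters searched in promoters are the core of a longer form that was searched first and is not reported here; the core was chosen after those matches had been seen. The steps were tested on simulated data and run in Python 3.11.15 with pandas 2.3.3 and scipy 1.17.1.

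Members and lists were chosen with earlier results of these data known. Named were the most abundant member of each complex, its 3 highest and 3 lowest, all members at least 2-fold apart, tissue isoforms, complex II, and in each list the most abundant gene, the 2 furthest and any at least 2-fold apart. Other members are given by range. Ndufs7, Ndufs8, Ndufv1, Ndufab1, Uqcrfs1, Nrf1, Fh1, Suclg1, Sucla2 and Atpif1 were added after their values were seen. For some lists only the genes at least 2-fold apart are printed. Of the other choices, a filter at 5 RPKM or none, pseudocounts of 0.1 and 5, a 1.5-fold threshold, 3 scalings, 200 and 1000 neighbours, median transcript length, matching on level and means were tried.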

Additional observations from a re-analysis of the deposited data

How the results depend on the processing

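No paired analysis was possible because each group had 1 library, and for the same reason no library could be left out. The median log2 difference of the 87 genes was 0.52 as deposited, 0.13 at equal sums and 0.73 under both the median ratio and the trimmed mean. The count at least 2-fold higher was 19 as deposited, 2 at equal sums, 32 under both other scalings and 40 at a 1.5-fold threshold; the count at least 2-fold lower was 0 as deposited and 2 at equal sums and at 1.5-fold. At equal sums the medians were 0.37 for complex I, -0.23 for complex II, 0.026 for complex III, 0.43 for complex IV and -0.0020 for ATP synthase. Under both the median ratio and the trimmed mean they were 0.97, 0.38, 0.63, 0.98 and 0.60. The mean over members was 0.66 in complex I and 0.0067 in complex II. The like-length difference was -0.08, and -0.14 with RefSeq-matched length and 0.062 as a mean. It was 0.38 with median transcript length, the choice under which the fewest low mRNA values came out near a whole read. The cause of these shifts was not tested. Of the 19 genes at least 2-fold higher, all 19 kept the call at a pseudocount of 0.1 and 17 at 5. Pseudocounts, filters, and 200 or 1000 neighbours moved no other of these values past the limits used. Intervals cover counting error only: pooling and single libraries leave the spread between animals unknown.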
